A study of Gallus gallus with 4 samples.

Results

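CSRP3 and FHL2 are muscle proteins built from LIM domains, and their transcripts were followed here in the breast muscle of male broiler chickens that differed in feed efficiency. They were chosen by name, each by the single array feature that a platform table assigns to its symbol, so they are 2 of the 3494 named genes with a value on every array and 2 of 45220 features. The choice was made with their ratios already known. Their values are therefore given as a description with no test of their own.

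The study compared males of a single line that were caged and fed individually, with weight gain and feed intake recorded from 6 to 7 weeks of age. The birds had no treatment, and their feed, based on corn and soy, held roughly 20.5% protein and 3280 kcal in each kg. Each of 4 two-colour arrays set breast muscle RNA of low efficiency (Cy3, channel 1) against RNA of high efficiency (Cy5, channel 2), read here as 1 bird of each kind per array, though the labels do not say whether RNA was pooled. With 0 dye-swapped arrays, dye and group cannot be told apart. What was deposited is a log2 ratio between the dyes for each feature, and each array was centred so that its median feature stands at 0. A negative value likely means less transcript in the high-efficiency bird. The numerator is not stated. Cy5 over Cy3 is the common convention, but every sign below turns around if the numerator was Cy3. Ratios carry no level, so the tissue could not be checked by the abundance of its markers.

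A LIM domain is a pair of zinc fingers that binds other proteins rather than DNA. CSRP3, the muscle LIM protein, sits at the Z-disc, the plate that anchors the thin filaments of striated muscle, and also enters the nucleus, where in mammals it binds the myogenic factor MYOD1. In mammals it is found mainly in heart and slow muscle fibres, and its loss in mice leads to a dilated heart. FHL2, from the family of proteins made almost wholly of LIM domains, is abundant in the mammalian heart, binds titin and integrins, and acts as a coregulator of transcription in the nucleus. Both are known as proteins of tissue under stretch and load.

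CSRP3 was the lower of the pair, with deposited log2 ratios of -2.78, -2.99, -3.18 and -2.95 on arrays 1 to 4. With the array median at 0 its ratios were -2.59, -2.50, -2.60 and -2.44. The lowest and highest of the 4 thus lay close together, and each array showed between 5.42-fold and 6.08-fold less CSRP3 transcript on the high-efficiency side. The mean was -2.53 ± 0.08 (SD, n = 4), or 5.79-fold lower. Centring each array narrowed the SD from 0.17, as deposited, to 0.08.

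FHL2 had deposited ratios of -1.11, -1.19, -1.36 and -1.23, and -0.92, -0.71, -0.79 and -0.72 with the array median at 0. Array 1 gave the lowest of these, while the other arrays lay between -0.79 and -0.71. The mean of -0.78 ± 0.10 (SD, n = 4) is a 1.72-fold lower level, with single arrays from 1.63-fold to 1.89-fold. Both genes lay below 0 on each of the 4 arrays, as did 15.6% of all named genes (544 of 3494).

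The ratio of CSRP3 was below that of FHL2 on all 4 arrays, and CSRP3 minus FHL2 came to -1.67, -1.79, -1.82 and -1.72 on the log2 scale. The mean difference was -1.75 ± 0.07 (SD, n = 4). The fold difference of CSRP3 was thus 3.37 times that of FHL2, and the values of the 2 genes did not overlap. The difference between the genes does not depend on where an array is centred, since centring moves both alike.

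**Figure D1:**
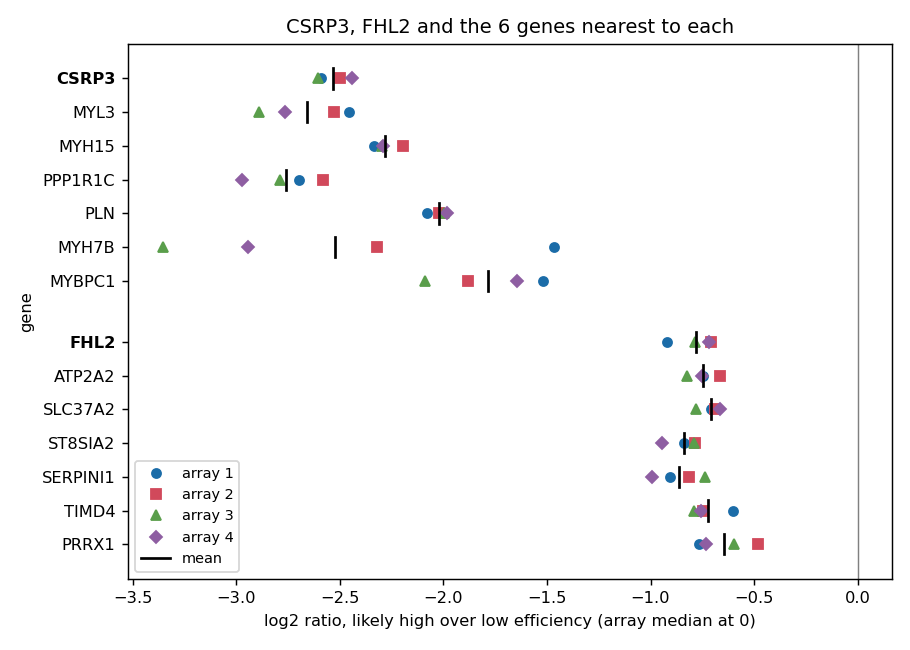
Log2 ratios of CSRP3, FHL2 and the 6 named genes nearest to each (horizontal axis, array median at 0, negative likely lower in high efficiency). Each symbol is 1 of 4 arrays and the black tick is the mean. The 4 values of CSRP3 lie between -2.60 and -2.44 and those of FHL2 between -0.92 and -0.71.

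Among the 3494 named genes CSRP3 was number 3 from the lowest by its mean, after PPP1R1C and MYL3. On single arrays its rank from the lowest was 30, 22, 29 and 36. FHL2 was number 166 by the mean, and 200, 297, 306 and 344 on the arrays. Of all 31722 features with a value on every array, named or not, 25 had a mean at or below that of CSRP3 and 2525 at or below that of FHL2.

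The spread between arrays was small for both genes. CSRP3 ranked 687 and FHL2 987 of 3494 by SD from the smallest, and the median SD over named genes was 0.17. A further 162 named genes had a mean between that of CSRP3 and that of FHL2, and 36 of them passed the test across all genes. That test was an intercept-only limma model with Benjamini-Hochberg adjustment, called at an adjusted p under 0.05. It called 24.6% of named genes, 18.5% higher and 6.1% lower. Without arrays 1, 2, 3 and 4 in turn it called 404, 4, 5 and 198 genes against 861 with all 4, so the calls below are those of the full set of arrays. With the least variable features, in place of the median, at 0 it called 241 genes higher and 414 lower. As deposited it called 9 higher and 1142 lower. List counts given below under either setting are to be read against these.

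**Figure D2:**
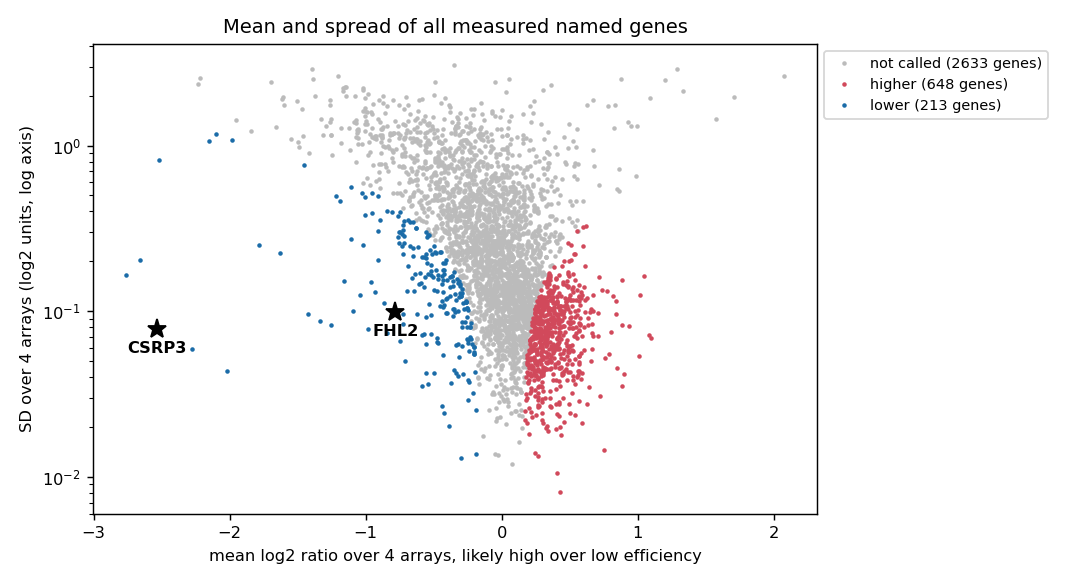
Mean log2 ratio over 4 arrays (horizontal axis) and SD over the arrays (vertical axis, log scale) of each of 3494 named genes, coloured by the limma call, with CSRP3 and FHL2 as stars. CSRP3 stands far to the left at an SD of 0.08, and FHL2 at -0.78 lies at the left edge of the cloud of genes of similar spread.

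A share of the deposited values are ratios of small whole numbers, as spots with very little net signal would give. Of 159989 measured values, 12.2% equalled, to the last decimal given, the log2 of a ratio of whole numbers from 1 to 10. Of the 8 values of CSRP3 and FHL2, 0 did, but 8 values are too few to tell this from a share of 12.2%. The brightness of the spots was not analysed here.

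The genes whose ratios were nearest to those of CSRP3 over the 4 arrays were mostly genes of the slow and cardiac contractile apparatus. Nearness was measured as the Euclidean distance between 4 log2 ratios. It thus mainly finds genes about as low as CSRP3 and is no test of a shared pattern over the arrays. MYL3, an essential light chain of myosin in ventricle and slow fibres, was nearest at a distance of 0.45. Its ratios of -2.46, -2.53, -2.89 and -2.76 lay below those of CSRP3 on 3 arrays and above on 1, so the order of these 2 genes was not settled. MYH15, a ventricular heavy chain of the chicken that the platform lists under the symbol MYH6, followed at a distance of 0.52 with -2.34, -2.20, -2.30 and -2.29.

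CSRP3 was lower than MYH15 on every array, with differences from -0.31 to -0.15. PPP1R1C, an inhibitor subunit of protein phosphatase 1 and no sarcomere gene, stood at a distance of 0.58 with a mean of -2.76 ± 0.16, and was lower than CSRP3 on all 4 arrays. Phospholamban, PLN, the brake on the slow and cardiac calcium pump, stood at a distance of 1.03 (-2.02 ± 0.04). The slow and cardiac-type heavy chain gene MYH7B at 1.45 (-2.52 ± 0.82) had nearly the mean of CSRP3 but ran from -1.47 on array 1 to -3.35 on array 3. Slow myosin-binding protein C, MYBPC1, was the last of the 6 at 1.56 (-1.78 ± 0.25).

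For FHL2 the nearest gene was also one of slow and cardiac muscle. ATP2A2, the calcium pump that phospholamban restrains, had ratios of -0.75, -0.66, -0.82 and -0.75, a distance of 0.19. FHL2 was lower than ATP2A2 on 2 arrays and higher on 2, and the mean difference of -0.04 ± 0.10 was within the spread between arrays. The other neighbours came from outside the sarcomere. They were the sugar-phosphate transporter SLC37A2 (-0.71 ± 0.05), the sialyltransferase ST8SIA2 (-0.84 ± 0.07) and the serpin SERPINI1 (-0.86 ± 0.11). TIMD4, a receptor for dying cells on macrophages (-0.72 ± 0.08), and the mesenchymal homeobox factor PRRX1 (-0.64 ± 0.13) completed the 6. Genes are dense at this ratio, and the farthest of the 6 lay 0.33 from FHL2, where the farthest of the 6 around CSRP3 lay 1.56 away.

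Set among the slow and cardiac sarcomere genes, CSRP3 stood near the bottom and FHL2 in the middle. Of the 25 genes on that list, 15 were measured. Of these, 12 fell, 0 rose and 3 did not pass, with a median of -1.09 against 0.01 over all named genes. Calls of lower genes made up 80% of the list, against 6.1% of all named genes. A further 2, TNNC1 and CASQ2, had deposited ratios within 0.005 of 0 on at least 3 arrays and were left out as not measured. With them kept, 2 were called higher, 12 fell and the median was -0.75. A deposited log2 ratio near 0 becomes positive on centring, since every array median was below 0, so such added calls come from the centring. The list was drawn up with earlier results of these data known and is not independent evidence of its direction. Only MYL3 had a lower mean than CSRP3, and 13 of the 15 were above CSRP3 on every array. For FHL2, 8 of the 15 were below it on every array and 4 above it on every array.

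The genes below FHL2 included slow troponin I, TNNI1 (-1.43 ± 0.10, adjusted p = 0.00444), the thin filament protein LMOD2 (-1.63 ± 0.22, adjusted p = 0.00725) and the filament-end cap TMOD1 (-1.09 ± 0.10, adjusted p = 0.00585). The 3 that did not pass were TPM3, MYL2 and MYH7, at -0.18 ± 0.07, -0.27 ± 0.35 and 0.72 ± 0.58. Without array 2 the list had 2 genes called, of 4 over all named genes. Without array 3 it had 3, of 5 over all named genes. Of the fast-fibre list only 4 of 24 genes were measured. Of these, 50% were called higher and 25% lower, against 18.5% and 6.1% of all named genes. TMOD4, which caps thin filaments in skeletal muscle (0.55 ± 0.04), and fast troponin T, TNNT3, rose. The calcium buffer parvalbumin, PVALB (-0.96 ± 0.15), fell. With the least variable features at 0 the fast-fibre list again held 2 higher and 1 lower genes. As deposited it held 0 higher and 2 lower, and TMOD4 stood at 0.11 (limma adjusted p = 0.450). All 3494 named genes split 241 higher and 414 lower in the first setting, and 9 and 1142 in the second. In whole muscle, fewer slow-type fibres and less RNA of the slow and cardiac genes per fibre cannot be told apart.

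**Figure D3:**
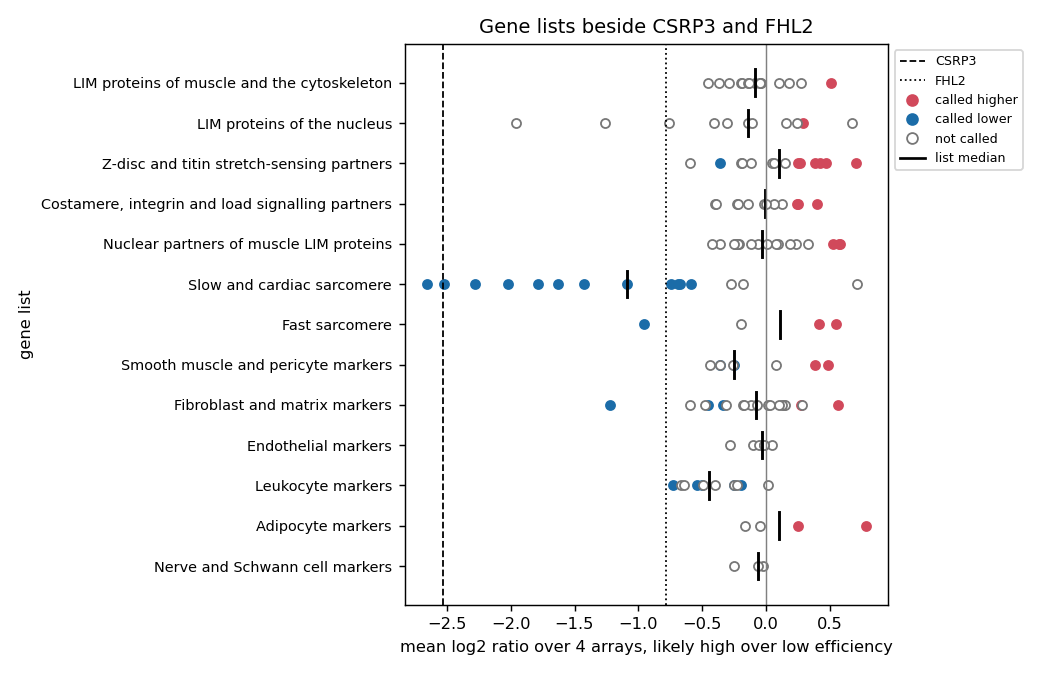
Mean log2 ratio over 4 arrays of each measured gene of 13 lists (1 list per line), with filled points for genes called by limma and a black tick at the list median. The dashed and dotted lines mark CSRP3 at -2.53 and FHL2 at -0.78. The slow and cardiac sarcomere list, with a median of -1.09, spreads to both sides of FHL2, and only MYL3 lies to the left of CSRP3. The cytoskeletal LIM proteins all lie to the right of FHL2.

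No other LIM protein of the cytoskeleton that was measured had a mean as low as FHL2. Of 47 further LIM proteins of muscle and the cytoskeleton 15 were measured, and their median was -0.09. In that list 1 rose and 0 fell by limma, while 3 were higher and 1 lower at an unadjusted p under 0.05. At least 24.6% of all named genes lie under that unadjusted cut, since every limma call does. The share called higher, 6.67%, was below the 18.5% of all named genes, and 0% were lower against 6.1%. All 15 lay above CSRP3 on every array, and 13 lay above FHL2 on every array. Only 4.75% of all named genes had a mean at or below -0.78, so most genes of any list would lie above both. These counts thus do not set the LIM proteins apart from other genes. No named feature carried the symbols of CSRP1, the CRIP proteins, FHL1, FHL3 and FHL5, other close relatives of CSRP3 or FHL2. These could not be followed by name, and 40829 of the 45220 features carried no symbol.

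CSRP2, the relative of CSRP3 best known from smooth muscle and developing vessels, was the gene that rose. Its ratios were 0.39, 0.53, 0.61 and 0.52 (mean 0.51 ± 0.09, 1.43-fold higher, adjusted p = 0.0105). All 4 values were above 0, and CSRP3 minus CSRP2 ran from -3.21 to -2.96 over the arrays. The value of CSRP2 depended on the centring, with a mean of 0.35 (adjusted p = 0.0247) with the least variable features at 0 and 0.07 (adjusted p = 0.579) as deposited. With 1 array left out its mean stayed between 0.48 and 0.55, while the adjusted p rose to 0.0742, 0.0700 and 0.0541 without arrays 2, 3 and 4. With the least variable features at 0 the list held 1 higher and 2 lower genes, and as deposited 0 higher and 7 lower. All 3494 named genes split 241 higher and 414 lower in the first setting, and 9 and 1142 in the second.

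The 5 next genes of this list by p did not pass. The focal adhesion protein zyxin, ZYX, stood at -0.45 ± 0.27 (adjusted p = 0.0621) and paxillin, PXN, at 0.18 ± 0.07 (adjusted p = 0.0641). PDLIM3, a Z-disc protein of the actinin-associated LIM family, stood at 0.27 ± 0.21, TES, a focal adhesion protein, at -0.20 ± 0.21 and NEBL, the cardiac relative of nebulin, at -0.37 ± 0.54. Among 11 measured LIM proteins of the nucleus the median was -0.14, with 1 higher and 0 lower. That is 9.09% higher, against 18.5% of all named genes. LMO2, a partner of blood and endothelial transcription factors, rose (0.29 ± 0.10, adjusted p = 0.0313) but stood at -0.15 as deposited. LMO4 (0.25 ± 0.13) did not pass. Named after their values were seen, ISL1 (-1.96 ± 1.42) and LHX9 (-1.26 ± 1.75) had means below that of FHL2. Their arrays differed widely, and neither passed by limma (adjusted p = 0.0873 and 0.288). In that list 0 genes passed when the least variable features were put at 0, and as deposited 0 were higher and 6 lower. Over all 3494 named genes these settings gave 241 higher and 414 lower, and 9 and 1142.

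Proteins that share the Z-disc with CSRP3 or bind titin, as FHL2 does, were set beside both genes. Of 14 measured members of 35 listed, 6 rose and 1 fell, with a median of 0.11. Called genes thus made up 42.9% higher and 7.14% lower, against 18.5% and 6.1% of all named genes. The Z-disc actinin ACTN2 and the stretch-responsive ANKRD1, both near a deposited ratio of 1, were left out, and with them kept 8 were called higher, 1 fell and the median was 0.20. A deposited ratio near 1 becomes positive on centring, since every array median was below 0, so such added calls come from the centring. The highest of the 14 was CAPZA2, a subunit of the protein that caps actin filaments at the Z-disc (0.71 ± 0.10, adjusted p = 0.00797), and its partner CAPZB stood at 0.43 ± 0.07. CFL2, the muscle cofilin that CSRP3 binds in mammals, had ratios of 0.25, 0.27, 0.22 and 0.26 (adjusted p = 0.0207), above 0 on every array. The muscle calpain CAPN3 (0.47 ± 0.11), the co-chaperone BAG3 (0.39 ± 0.06) and the nebulin-binding MYPN (0.27 ± 0.04) also rose.

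The gene that fell was myotilin, MYOT (-0.36 ± 0.14). Named after its values were seen, titin itself, TTN, did not pass at 0.06 ± 0.13. Its 6 features disagreed, with means from -0.19 to 0.51 and 1 of them called by the fit over features, which called 3.97% of all features. With the least variable features at 0 the list held 4 higher and 2 lower genes, and MYPN (adjusted p = 0.126) and CFL2 (adjusted p = 0.175) did not pass. As deposited it held 0 higher and 5 lower genes, with CAPZB, BAG3, MYPN and CFL2 below 0. Over all 3494 named genes these settings gave 241 higher and 414 lower, and 9 and 1142. The list had 0 calls without array 2, 0 without array 3 and 1 without array 4, against 4, 5 and 198 over all named genes.

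Costamere, integrin and load signalling genes included the known CSRP3 partners around calcineurin, the phosphatase that carries calcium signals of load to the nucleus. Of 12 measured members of 32 listed, 3 rose and 0 fell, with a median of -0.01. The shares were 25% higher and 0% lower, against 18.5% and 6.1% of all named genes. At an unadjusted p under 0.05, where at least 24.6% of all named genes lie, 3 were higher and 1 lower. GLRX3, which in mice competes for the binding of CSRP3 to calcineurin, had ratios of 0.44, 0.40, 0.41 and 0.36 (adjusted p = 0.00987). The calcineurin subunits PPP3R1 (0.25 ± 0.10, adjusted p = 0.0465) and PPP3CA (0.25 ± 0.11, adjusted p = 0.0489) passed narrowly. The integrin-linked kinase ILK (-0.40 ± 0.33), the integrin subunit ITGAV (-0.39 ± 0.36) and dystrophin, DMD (0.13 ± 0.19), did not pass.

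All 3 genes that rose stood below 0 as deposited. There 0 genes of the list were higher and 2 lower, against 9 and 1142 of 3494 named genes. Leaving out arrays 1, 2, 3 and 4 left 1, 0, 0 and 1 calls, against 404, 4, 5 and 198 over all named genes. With the least variable features at 0, or with values needed on only 3 arrays, 1 gene was called. Over all named genes these settings called 655 of 3494 and 672 of 3818. With the former centring PPP3R1 (adjusted p = 0.289) and PPP3CA (adjusted p = 0.302) did not pass.

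The nuclear partners of the LIM proteins held 3 higher and 0 lower of 18 measured genes (32 listed), with a median of -0.03. The share called higher, 16.7%, was close to the 18.5% over all named genes. MYOD1, the myogenic factor that CSRP3 binds in mammals, had ratios of 0.59, 0.50, 0.50 and 0.52 (adjusted p = 0.00799). MYF6, the myogenic factor of mature fibres, had 0.66, 0.58, 0.65 and 0.42 (adjusted p = 0.00987), and the cyclic AMP response gene CREM stood at 0.58 ± 0.08. The platform lists this feature as ICER, the name of a repressor form made from the CREM gene. These 3 genes were above 0 on every array, as were 31.1% of named genes, and opposite in sign to both LIM proteins. CREB1 (0.24 ± 0.13), FOXO1 (0.19 ± 0.09) and KLF5 (-0.24 ± 0.15) did not pass. Named after their values were seen, the myogenic factors MYOG (0.08 ± 0.28) and MYF5 (-0.06 ± 0.32) did not pass by limma either (adjusted p = 0.685 and 0.771). As deposited MYOD1, MYF6 and CREM kept positive means of 0.09, 0.14 and 0.14 but did not pass. The list then held 0 higher and 6 lower genes, against 9 and 1142 of 3494 named genes. Without array 2 or 3 the list had 0 calls, against 4 and 5 over all named genes.

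FHL2 is also made outside muscle fibres, and markers of other cell types were set beside it. Of 8 measured smooth muscle and pericyte markers 2 rose and 2 fell (median -0.25), led by synemin, SYNM (0.49 ± 0.04), which skeletal muscle also makes, and ACTG2 (0.38 ± 0.09). The actin ACTA2 (-0.36 ± 0.09) and the actin-binding CALD1 (-0.25 ± 0.04), named after their values were seen, were the ones that fell. The shares were 25% higher and 25% lower, against 18.5% and 6.1% of all named genes. With the least variable features at 0 the list held 1 higher and 4 lower genes, and as deposited 0 and 5. All 3494 named genes split 241 higher and 414 lower in the first setting, and 9 and 1142 in the second. In all, 7 of the 8 markers lay above FHL2 on every array, but most named genes also had a higher mean than FHL2. Of 20 fibroblast and matrix markers 2 rose and 3 fell (median -0.08), led by POSTN, which rose (0.57 ± 0.04), and COL6A1, which fell (-0.34 ± 0.04). THBS2, named after its values were seen, also fell (-1.22 ± 0.50). It was the only 1 of the 20 with a mean below that of FHL2, though not on every array. In this list 17 markers lay above FHL2 on every array. Shares of 10% higher and 15% lower stood against the same 18.5% and 6.1%. The split was 1 higher and 7 lower with the least variable features at 0, and 0 and 8 as deposited, to be read against the same all-gene splits. Of 7 endothelial markers 0 passed by limma, against 24.6% of named genes. At an unadjusted p under 0.05, where at least 24.6% of named genes lie, 0 were higher and 1 lower. CLDN5 (-0.28 ± 0.23) and EGFL7 (0.05 ± 0.07) had the smallest p.

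Of 12 measured leukocyte markers 5 fell, 0 rose and 7 did not pass, with a list median of -0.45 and array medians of -0.21, -0.40, -0.49 and -0.50. The share called lower was 41.7%, against 6.1% of all named genes. CD83 (-0.50 ± 0.04) and JCHAIN (-0.73 ± 0.29) led. No member had a mean as low as that of FHL2, as was so for most named genes. The part of leukocytes in the FHL2 ratio was not tested. Of 4 adipocyte markers 2 rose (50%, against 18.5% of all named genes), FABP4 (0.79 ± 0.06) and LPL (0.26 ± 0.08). The others, ADIPOQ (-0.05 ± 0.07) and SCD (-0.16 ± 0.48), had means below 0 and did not pass. The adipocyte split was 1 higher and 0 lower with the least variable features at 0, and 0 and 1 as deposited. All 3494 named genes split 241 and 414 in the first setting, and 9 and 1142 in the second. Of 3 nerve and Schwann cell markers 0 passed by limma, against 24.6% of all named genes, and 0 had an unadjusted p under 0.05. With 3 genes this cannot be told from the share over all genes. NEFM stood at -0.25 ± 1.06 and MBP at -0.03 ± 0.11.

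Of the 5 protein-coding genes on either side of CSRP3 in the chicken assembly GRCg7b, 3 were measured. None of these passed, against 24.6% of all named genes, and 3 genes are too few to tell this from that share. NADSYN1 stood at -0.29 ± 0.16, E2F8 at -0.17 ± 1.15 and NAV2 at -0.12 ± 1.21. Around FHL2 the only one measured, MRPS9, stood at 0.06 ± 0.10. These neighbours were chosen by position alone.

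CSRP3 and FHL2 kept their sign under each other way of processing apart from turning the dyes. CSRP3 stood at -2.97 as deposited and -2.69 with the least variable features at 0, and FHL2 at -1.22 and -0.94. Leaving out 1 array at a time moved CSRP3 only between -2.57 and -2.51 and FHL2 between -0.81 and -0.74. From the lowest, CSRP3 ranked 3 under each of these centrings, 3 with arrays scaled alike or quantile normalized, and 4 to 7 with 1 array left out.

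**Figure D4:**
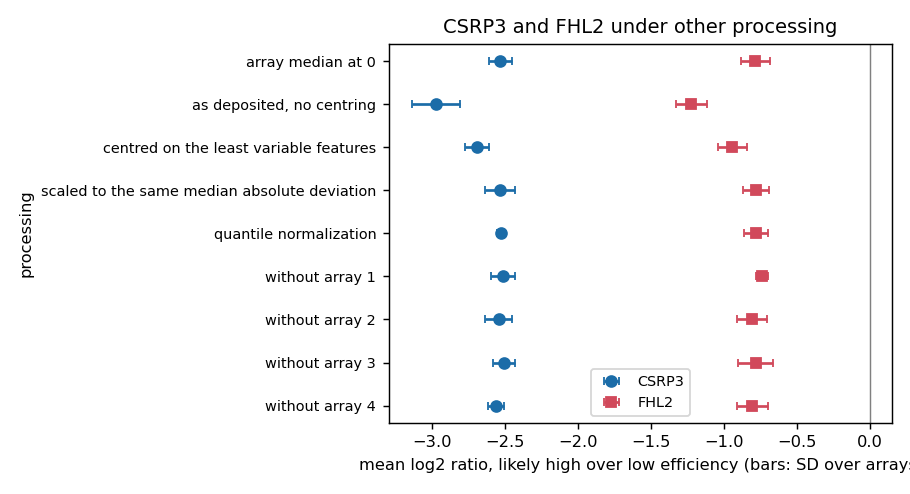
Mean log2 ratio of CSRP3 (circles) and FHL2 (squares) under other centring and scaling and with each array left out in turn, with bars for the SD over the arrays used. CSRP3 stays between -2.97 and -2.51 and FHL2 between -1.22 and -0.74.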

How the data were processed

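The authors deposited log2 ratios of the 2 dyes for 45220 features on 4 arrays. Their scale was inferred from the values, since the sources used here state neither numerator nor normalization. Deposited medians were -0.19, -0.49, -0.58 and -0.52. Empty values (4625 to 5576 per array) and a ceiling of 16.61 were treated as missing, and 160 features that 3 or more arrays put within 0.005 of 0 were left out, which removed neither LIM gene. A platform table named 4391 features. Symbols were updated through unique synonyms in the RefSeq table of GRCg7b (410 of 4046). Each array was centred on its median and features of a gene averaged. limma 3.58.1 (R 4.3.3, intercept only, eBayes, two-sided) was fitted to all genes and tested on simulated data. P-values measure only the spread between the 4 arrays. Precision is limited by their number, and signal over background was not analysed here. Over genes, arrays correlated at Pearson's r of 0.20 to 0.31.

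The 2 genes and all lists were chosen with earlier results of these data known. Genes named by rule were the 6 nearest to each LIM gene, the 6 (5 main lists) or 2 (other lists) smallest p per list, and the CSRP, CRIP and FHL relatives. Others were named by position or after their values were seen. Alternatives were other centrings and scalings, other feature filters, other variance models and thresholds, and leaving out each array.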

Additional observations from a re-analysis of the deposited data

Results flagged for a closer look

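TMOD1, the filament-end cap named among the slow and cardiac genes, had 1 array far from the others. Array 1 gave -1.24, while the other arrays lay between -1.06 and -1.03. The gap was 0.849 of the whole range, above Dixon's critical value for 4 values. The lower ratio was present on all 4 arrays. Of 57 genes examined in this way, including CSRP3 and FHL2, 1 was found, and chance alone gives about 1 in 20.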

How the results depend on the processing

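CSRP3 and FHL2 stayed below 0 under every alternative other than a turned dye ratio, which gives 2.53 and 0.78. They stood at -2.97 and -1.22 as deposited and at -2.69 and -0.94 when the least variable features were put at 0. Their difference moved by less than its SD under every alternative. Leaving out 1 array gave CSRP3 from -2.57 to -2.51, FHL2 from -0.81 to -0.74 and the difference from -1.78 to -1.73. Each array is already 1 ratio of both groups, so the fit of the ratios against 0 uses the pairing within an array.

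Genes called (861) numbered 171 at an adjusted p under 0.01, 131 over 1.5-fold, and 4 to 404 with 1 array left out. Their split of 648 higher and 213 lower became 241 and 414 with the least variable features at 0, and 9 and 1142 as deposited, where the gene median was -0.15 and -0.43. Features called (1258) numbered 3431 as deposited, 389 with values on at least 3 arrays, 2494 with an unmoderated t statistic, 199 at an adjusted p under 0.01, 757 over 1.5-fold, and 120 to 142 with 1 array left out. The cause of these changes was not tested.

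As deposited, the following calls were all lower, with 7 in cytoskeletal LIM proteins, 6 in nuclear LIM proteins and 6 in nuclear partners. Also lower were 8 in fibroblast (0 higher), 3 in endothelial, 10 in leukocyte and 1 in adipocyte genes. With the least variable features at 0, calls numbered 3 in cytoskeletal and 0 in nuclear LIM proteins and 1 in costamere genes. Fibroblast genes then had 8 calls (1 higher) and adipocyte genes 1 (higher). Costamere genes had 1 call with values on at least 3 arrays. With 1 array left out, calls ranged from 0 to 1 in cytoskeletal LIM proteins, 0 to 6 in Z-disc, 0 to 1 in costamere, 0 to 3 in nuclear partner and 2 to 11 in slow and cardiac genes.

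Signs turned as deposited, where all genes shift down alike, for PXN (-0.26), PDLIM3 (-0.17), LMO2 (-0.15), LMO4 (-0.20), CAPZB (-0.012), BAG3 (-0.053), MYPN (-0.17), CFL2 (-0.19), GLRX3 (-0.0405), PPP3R1 (-0.19), PPP3CA (-0.19), DMD (-0.31), CREB1 (-0.20), FOXO1 (-0.25), ACTG2 (-0.0585), EGFL7 (-0.39) and LPL (-0.19). With the least variable features at 0 they turned for DMD (-0.034) and EGFL7 (-0.11). With 1 array left out NEFM ranged from -0.56 to 0.22 (without array 4) and MBP from -0.077 to 0.0077 (without array 3).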
